A study of Mus musculus with 3 samples.

Results

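The genes described here are the 9 core genes of MHC class I antigen presentation in mouse macrophages: the heavy chains H2-K1, H2-D1 and H2-T23, the light chain B2m, the peptide transporter subunits Tap1 and Tap2, the loading factor Tapbp, the peptide trimmer Erap1 and the transcriptional activator Nlrc5. They were taken by gene symbol, and all 9 were found among the 55536 annotated genes of the deposited tables, with 61 annotated transcripts between them. Of the 9, 6 lie on chromosome 17, which holds the mouse MHC. The samples were BMDM, that is macrophages grown from bone marrow, of the C57BL/6J strain, exposed to 100 ng/ml Lipid A for 30 min. Lipid A is the part of bacterial lipopolysaccharide that Toll-like receptor 4 recognises. RNA of the cytosolic fraction was depleted of ribosomal RNA and sequenced in 3 libraries, which the labels number as biological replicates 1, 2 and 3 and tie to the same donor record. Age and sex were not collected for these cells. All 3 libraries belong to this group, and unstimulated cells or the nuclear fraction were not analysed here, so the values below are levels after Lipid A and say nothing of induction.

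Class I molecules carry peptides from the cell's own proteins to the surface, where cytotoxic T cells and natural killer cells read them. A heavy chain folds in the endoplasmic reticulum with beta-2 microglobulin, the product of B2m, while the transporter made of Tap1 and Tap2 brings peptides in from the cytosol. Tapasin, the product of Tapbp, holds the empty heavy chain beside the transporter, and Erap1 trims peptides to a length that fits the groove. H2-K1 and H2-D1 encode the classical heavy chains, H2-T23 encodes the non-classical chain Qa-1, and Nlrc5 activates transcription of class I genes at a conserved promoter module. In macrophages these genes are known to be active at rest and to respond to interferons.

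Because the heavy chains are close relatives, reads from them can be hard to place. The coding sequences of transcripts H2-K1-201 (1107 bases) and H2-D1-202 (1086 bases) were identical at 988 of 1074 aligned bases, or 92.0%, whereas H2-T23-201 shared 83.7% with H2-K1 and 82.8% with H2-D1. In spite of its lower identity, H2-T23 shared a longest run of 145 coding bases with H2-D1, and of 81 with H2-K1. The longest run of coding bases that H2-K1 and H2-D1 have in common spans 91 bases of the fourth exon. It is shown because a read inside it fits both genes equally well. It lies at chr17:33997343-33997433 on the minus strand for H2-K1 and at chr17:35265911-35266001 on the plus strand for H2-D1 (mm10).
shared run: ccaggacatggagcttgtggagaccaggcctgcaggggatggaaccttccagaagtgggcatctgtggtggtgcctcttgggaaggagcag

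The contrast is the 60-base stretch where both coding sequences differ most without a gap, in exon 3, with 15 differing bases. Reads over it tell the genes apart. Capitals mark the bases that differ. It lies at chr17:33999330-33999389 (minus strand) in H2-K1 and at chr17:35263996-35264055 (plus strand) in H2-D1.
H2-K1: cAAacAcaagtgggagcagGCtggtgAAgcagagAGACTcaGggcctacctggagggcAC
H2-D1: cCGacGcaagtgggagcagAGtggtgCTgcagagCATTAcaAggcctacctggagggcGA

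Over all annotated transcripts, 22.8% of the distinct 31-base words of H2-K1 also occurred in transcripts of other genes, and 11.1% occurred in those of H2-D1. The share in other genes was 26.9% for H2-D1 and 25.8% for H2-T23, where the leading gene was H2-T-ps (12.4%). Such sharing was not confined to the heavy chains. It was 26.9% for Tapbp, where the leading gene was Gm19412 (22.1%), 14.3% for Tap2, 11.0% for Erap1 and 4.09% for Tap1. B2m had no such word, and Nlrc5 had 0.579%. In spite of this, the assignment of reads to genes left little doubt in the deposited estimates. The posterior standard deviation of the gene count, the quantifier's own measure of uncertain placement, was at most 3.56 counts for H2-D1, against counts of 84486, 162064 and 133607. For H2-K1 it was at most 0.21 counts, against counts of 28671, 48642 and 40411. That measure covers read placement only and not the spread between cultures.

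The 3 libraries held 23403552, 50435201 and 35785896 expected counts in genes for replicates 1, 2 and 3, and the 9 genes took 0.794%, 0.734% and 0.744% of them. Each member had a mean of at least 1722 counts. A further property of the libraries bears on every value in TPM, which scales transcripts to the same total in each library after division by length: nuclear protein-coding genes took 22.3%, 34.4% and 24.3% of all TPM, so that such a gene with the same share of messenger RNA has a higher TPM in replicate 2. Levels between genes are therefore given as deposited TPM, and differences between libraries on a second scale, CPM (counts per 1e+06 counts in genes) after TMM scaling. Stromal marker genes stood apart in replicate 1: the summed level of 8 such markers was 23.9 TPM there, against 0.05 and 0.12 TPM in replicates 2 and 3. All 10 macrophage markers were at 10 TPM or more, and summed to between 6237 and 8293 TPM. Of 8 T and natural killer cell markers only Cd4 exceeded 1 TPM, at 18.8, 28.9 and 25.3 TPM, and Cd3e, Cd3d, Cd8a and Ncr1 were at or near 0. No B cell marker of 5 reached 1 TPM, 1 of 6 dendritic markers did (Batf3), and 3 of 6 neutrophil markers did (S100a8, S100a9 and Csf3r) while Ly6g was at or near 0.

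B2m and the classical heavy chains were among the most abundant nuclear protein-coding messages of these macrophages. B2m (chr2:122147686-122153083, plus strand) had 1566, 2482 and 1338 TPM in replicates 1, 2 and 3, a mean of 1796 ± 606 TPM (SD, n = 3), which placed it 13th by mean TPM. Replicate 2 stood well above the other libraries in deposited TPM of B2m. In TMM-scaled CPM B2m had 2030, 2166 and 1598, so replicate 2 was close to replicate 1, and replicate 3 was the lowest. H2-D1 (chr17:35262730-35267499, plus strand) had 1039, 1221 and 1185 TPM, a mean of 1148 ± 96.5 TPM, and ranked 17th. H2-K1 (chr17:33996017-34000347, minus strand) had 747, 869 and 682 TPM, a mean of 766 ± 95.2 TPM, and ranked 24th. The values of H2-K1 and H2-D1 did not overlap: in every library H2-D1 was the higher.

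The other members formed lower steps. Tapbp (chr17:33915899-33929292, plus strand) had 116, 108 and 115 TPM, a mean of 113 ± 4.60 TPM. H2-T23 (chr17:36029773-36032855, minus strand) had 93.1, 110 and 96.2 TPM, a mean of 99.7 ± 8.83 TPM. These genes overlapped in level, with Tapbp the higher in replicates 1 and 3 and H2-T23 the higher in replicate 2. Tap1 (chr17:34187553-34197225, plus strand) followed with 21.2, 24.1 and 22.98 TPM, a mean of 22.7 ± 1.48 TPM. Erap1 (chr13:74639568-74693201, plus strand) had 11.6, 14.7 and 11.9 TPM, Tap2 (chr17:34203527-34216321, plus strand) had 10.9, 10.2 and 12.4 TPM, and Nlrc5 (chr8:94434356-94527272, plus strand) had 10.03, 13.5 and 7.96 TPM. The activator Nlrc5 thus had the lowest mean of the 9, 10.5 ± 2.77 TPM, and ranked 3817th among nuclear protein-coding genes.

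**Figure D1:**
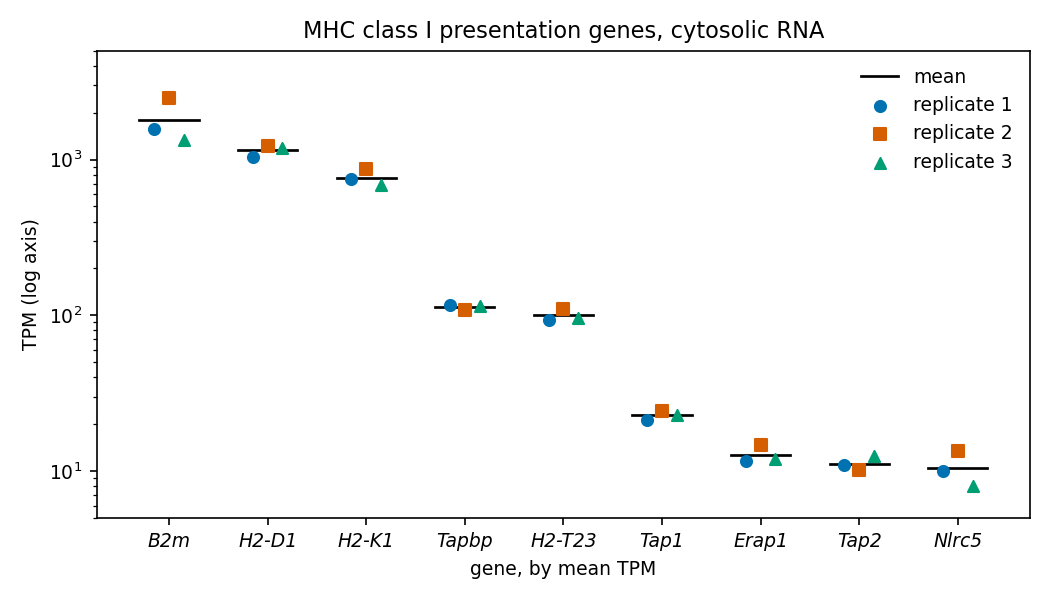
TPM of each member in the 3 libraries on a log axis, one symbol per replicate, with the mean as a bar, ordered by mean TPM. B2m, H2-D1 and H2-K1 lie at 682 TPM or more, Tapbp and H2-T23 near 100 TPM, and Tap1, Erap1, Tap2 and Nlrc5 between 7.96 and 24.1 TPM.

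In the order of mean level, 5 of the 8 neighbouring pairs differed beyond their spread, by the rule that the within-library difference of log2(TPM + 1) had the same sign in all 3 libraries and a mean above its SD. The largest step, between H2-K1 and Tapbp, was 2.74 ± 0.23 on that scale, followed by 2.08 ± 0.06 between H2-T23 and Tap1. B2m exceeded H2-D1 by 0.60 ± 0.42, H2-D1 exceeded H2-K1 by 0.59 ± 0.18 and Tap1 exceeded Erap1 by 0.80 ± 0.11. For these 5 pairs the exact two-sided sign-flip permutation test gave p = 0.25, the smallest that 3 libraries allow, so none could reach 0.05. Tapbp and H2-T23 (0.18 ± 0.18), Erap1 and Tap2 (0.17 ± 0.29), and Tap2 and Nlrc5 (0.11 ± 0.48) did not differ beyond their spread, with exact permutation p = 0.5, 0.5 and 0.75.

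As a list, the members lay above the typical expressed gene and above both comparison lists. In mean TPM of the gene table all 9 reached 10 TPM, against 41.3% of the 10033 genes with a mean of at least 1 TPM, and 4 of 9 reached 100 TPM, against 4.78%. Nlrc5 was under 10 TPM in replicate 3, at 7.96 TPM. In the second transcript table the mean TPM of Tap1 (8.39), Erap1 (6.43), Tap2 (4.30) and Nlrc5 (3.76) were under 10, which leaves 5 of the 9. The median of log2(TPM + 1) over the members was 6.64 ± 0.11 (SD over 3 libraries), which exceeded the median of those 10033 genes by 3.58 ± 0.18. It exceeded the median of 11 MHC class II pathway genes by 3.46 ± 0.14, and that of 19 interferon-stimulated genes by 2.09 ± 0.34, in each of the 3 libraries. Which genes stand in a list fixes much of such a difference, and no test was made of it.

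**Figure D2:**
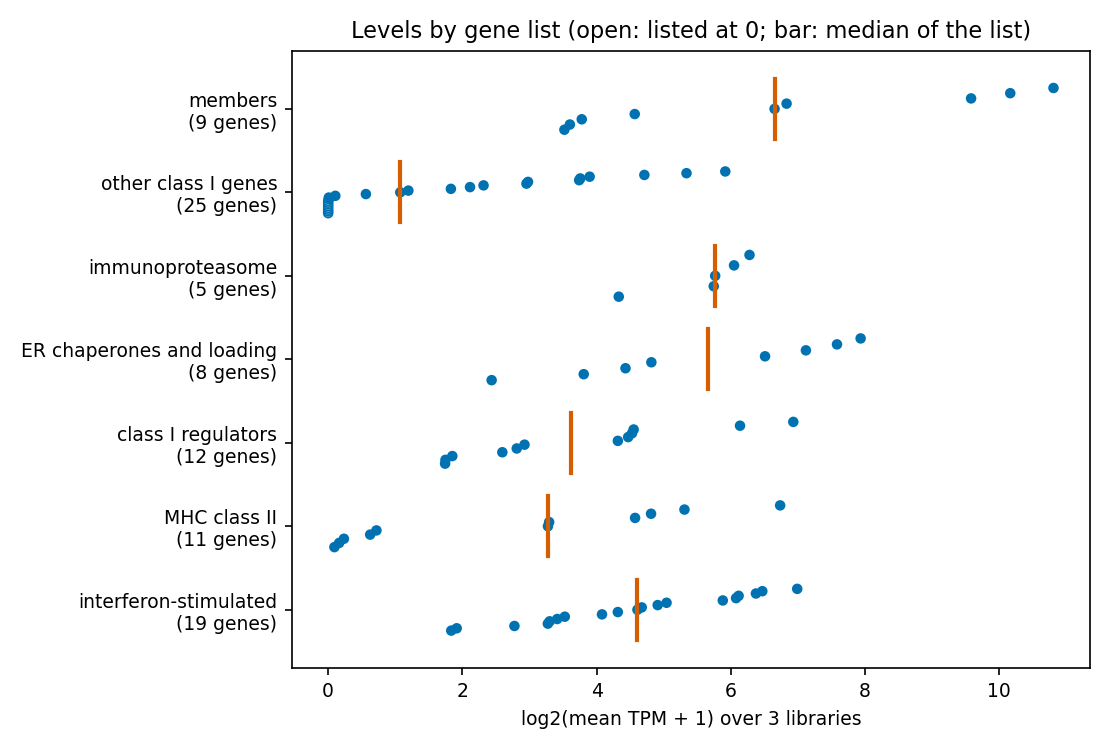
Level of each gene of 7 lists as log2(mean TPM + 1) over the 3 libraries, with the list's median as a bar and genes listed at 0 as open points. The 9 members run from 10.5 TPM (Nlrc5) to 1796 TPM (B2m), while 8 of the 25 other class I genes had no count in the gene table.

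The partner genes of the class I complex were close to balance in TPM, but with a wide spread. H2-K1 and H2-D1 together had 1.14, 0.842 and 1.39 times the TPM of B2m in replicates 1, 2 and 3. The mean log2 ratio was 0.14 ± 0.37 (exact sign-flip permutation p = 0.75), and its sign differed between libraries: the heavy chains were higher in replicates 1 and 3, and B2m was higher in replicate 2. With protein-coding transcripts alone the mean log2 ratio was -0.17 ± 0.43, and without replicate 3 it was -0.029, so no direction can be given for it. The ratio of H2-K1 to H2-D1 was 0.719, 0.711 and 0.575, a mean log2 ratio of -0.59 ± 0.18. Restricted to protein-coding transcripts it was 0.376, 0.333 and 0.348, or -1.51 ± 0.09 on the log2 scale, so that the distance between the classical chains depended on which H2-K1 transcripts were counted.

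That dependence came from 1 short transcript model. H2-K1-215, annotated as a retained intron, is 457 bases long and was assigned 341, 449 and 248 TPM, which was 45.7%, 51.6% and 36.4% of the gene's TPM. In counts it was a small part, 12.9%, 15.2% and 9.61%, since TPM divides by length and the coding transcript H2-K1-201 has 1619 bases. The second transcript table gave it less, 40.3%, 43.7% and 20.5% of TPM and 10.5%, 11.4% and 4.81% of counts. H2-K1-215 consists of 2 exons and shares 437 of its bases with H2-K1-201. Its remaining 20 bases lie in intron 6 (chr17:33996655-33996674), of which it keeps only this end. Without that model H2-K1 had 406, 420 and 434 TPM, a mean of 420 ± 13.8 TPM. In deposited TPM, the higher H2-K1 value of replicate 2 was thus carried by H2-K1-215. On the scale used between libraries, TMM-scaled CPM, H2-K1 was lowest in replicate 2, at 912 CPM against 1256 and 1166 CPM in replicates 1 and 3. The steady TPM of the other H2-K1 transcripts therefore does not show a steady share of messenger RNA. H2-D1, B2m and H2-T23 had no such split: protein-coding transcripts held 99.6 ± 0.04%, 100% and 98.6 ± 0.36% of their TPM.

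**Figure D3:**
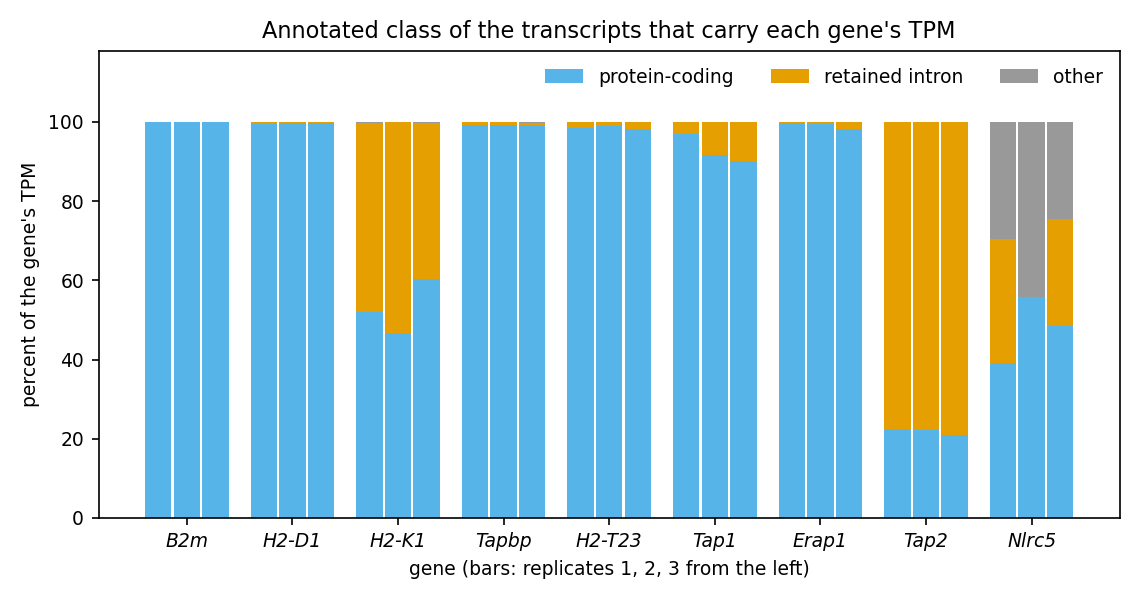
Percent of each member's TPM held by transcripts annotated as protein-coding, retained intron or other, with 1 bar for each replicate. Protein-coding transcripts hold 53.0% of H2-K1, 21.9% of Tap2 and 47.8% of Nlrc5 on average, and over 90% of the other 6 genes.

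For the transporter, the subunit genes differed in the same way. At the gene level Tap1 had 1.95, 2.37 and 1.85 times the TPM of Tap2, a mean log2 ratio of 1.03 ± 0.19. In protein-coding transcripts alone the ratio was 8.44, 9.78 and 7.95, a mean log2 ratio of 3.12 ± 0.15 (exact sign-flip permutation p = 0.25 for both). Most of the Tap2 signal sat on Tap2-202, a 2561-base transcript annotated as a retained intron, with 8.44, 7.92 and 9.79 TPM, against 2.43, 2.26 and 2.36 TPM for the coding transcript Tap2-201. In counts Tap2-202 held 72.8 ± 1.91% of the gene, and the second transcript table, from another quantifier, gave it 76.1 ± 1.15% of TPM, against 78.1 ± 0.71% in the first. These Tap2 shares are thus close between tables and between libraries. They compare whole transcript models, which differ in the first exon as well as in the intron. Reads over the intron or its junctions were not counted, so the part of Tap2 RNA that keeps the intron was not measured. The ratio of Tap1 to Tap2 in protein-coding transcripts rests on the same assignment.

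Tap2-202 differs from Tap2-201 in its shorter first exon, 57 bases against 1097, and in the whole of intron 6 (162 bases, chr17:34212068-34212229, plus strand), which it keeps. The junction is shown because the models can be told apart there only by reads that enter the intron or are spliced across it. Lower case marks exon and capitals mark the retained intron, and below it stands the same place spliced. The reading frame of Tap2-201, carried on into the intron, meets a TGA stop codon that begins 7 bases into it.
Tap2-202: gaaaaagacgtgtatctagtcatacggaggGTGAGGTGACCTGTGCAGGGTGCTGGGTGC
Tap2-201: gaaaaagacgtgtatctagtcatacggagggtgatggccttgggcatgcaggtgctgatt

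Transcripts of other genes lie over several members, and whether the counting used strand is not given in the sources used here. Gm15821, a macro lncRNA on the opposite strand at chr17:34211312-34214459, shares 533 exonic bases with Tap2, and its span includes the retained intron. It was assigned 0, 0 and 3.06 counts. Tapbp shares 904 exonic bases with the antisense gene Gm19412, which had at most 17.3 counts, and Erap1 shares 834 with Cast, the gene of the protease inhibitor calpastatin, which had 2352, 6944 and 3714 counts. Erap1, with 2731, 5334 and 3922 counts, had the largest posterior standard deviation of the 9, up to 11.1 counts. Tapbp also shares 149 exonic bases with Zbtb22, which is on the same strand and had 627, 1618 and 1143 counts, so that strand could not separate their reads there. Tap1 shares 212 exonic bases with the immunoproteasome gene Psmb9 on the opposite strand. If strand was not used, reads over the stretches shared with genes on the opposite strand cannot be told apart.

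Nlrc5 was split among many models. The long coding transcripts Nlrc5-201 and Nlrc5-207 together had 3.92, 4.25 and 3.81 TPM, a mean of 3.99 ± 0.23 TPM. In deposited TPM this was steadier than the gene as a whole. Nuclear protein-coding genes took more of all TPM in replicate 2, so this does not show a steadier share of messenger RNA. The short 5′ models Nlrc5-208 and Nlrc5-209 had 2.86, 5.65 and 1.94 TPM from 25, 77.5 and 18.2 counts. Between Nlrc5-202 (coding) and Nlrc5-203 (retained intron) the estimate switched: Nlrc5-203 had 220 and 174 counts in replicates 1 and 3 and 0 in replicate 2, where Nlrc5-202 had 361 counts with a posterior standard deviation of 104 counts. The split between those models is thus uncertain. In deposited TPM, the difference in Nlrc5 between libraries lay largely in the short models.

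Tap1, Tapbp and Erap1 were dominated by coding models, though the tables divided Tap1 differently. Tap1-206 held 66.2 ± 3.33% of the gene's TPM in the first transcript table and 89.1 ± 1.90% in the second, while Tap1-201 held 22.9 ± 5.92% and 5.46 ± 0.79%. Tapbp-206 held 88.5 ± 0.63% and 85.5 ± 0.31%. Erap1-201 held 92.1 ± 3.07% in the first table, and the short coding model Erap1-203 held 7.09 ± 3.66% from 4.91, 14.7 and 4 counts, so that its share rests on few reads.

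In summed counts per gene the tables differed little for the members. The second table gave between 0.05 and 0.18 more on the log2 scale in summed counts for the 9 members, against a median of 0.13 and quartiles of 0.10 and 0.19 over the 13237 tested genes. Deposited TPM were lower in the second table for all 9, with means of 284 against 766 TPM for H2-K1, 450.3 against 1148 TPM for H2-D1 and 3.76 against 10.5 TPM for Nlrc5. In TPM rescaled to nuclear protein-coding genes, the log2 difference of the second table minus the first was -0.31 ± 0.08 for Nlrc5, -0.25 ± 0.07 for H2-K1 and 0.20 ± 0.08 for Erap1 (SD over 3 libraries). It lay between -0.20 and -0.01 for the other 6 members.

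**Figure D4:**
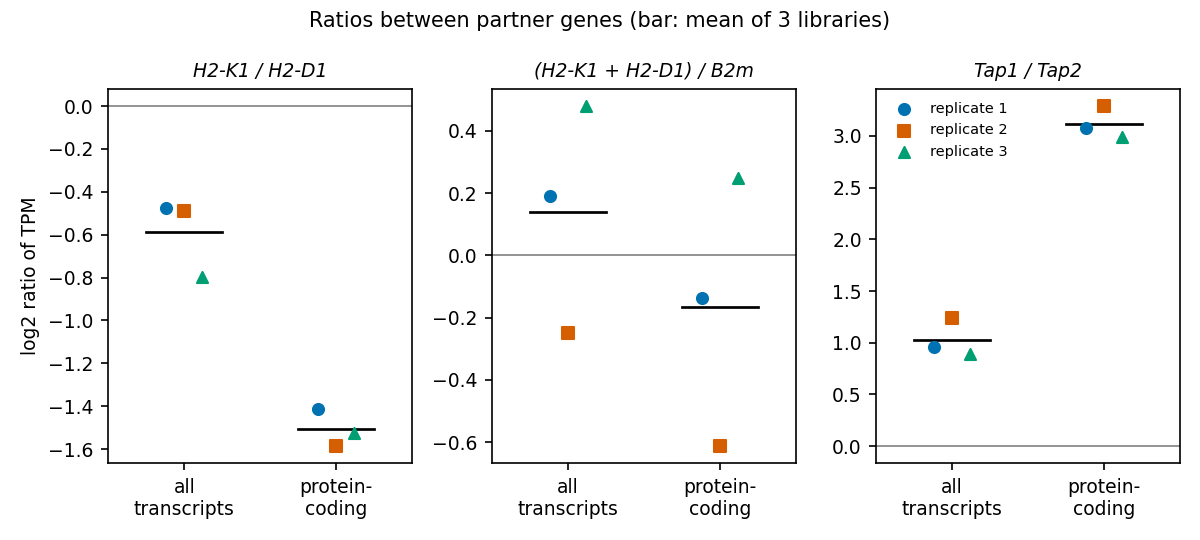
Log2 ratio of TPM between partner genes in each library, from all transcripts (left in each panel) and from protein-coding transcripts alone (right), with the mean as a bar. H2-K1 stays below H2-D1 and Tap1 above Tap2 in all 3 libraries, and the ratio of H2-K1 plus H2-D1 to B2m lies on both sides of 0.

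Between libraries, 8 of the 9 members moved together on the TMM-scaled CPM scale, and B2m did not. Replicate 2 was the lowest library for H2-K1, H2-D1, H2-T23, Tap1, Tap2, Tapbp, Erap1 and Nlrc5, against 33.2% of the 13237 genes with a mean count of at least 10 and 31.0% of the 5163 genes with a mean of at least 1000. This count was made after the values were seen. Replicate 1 was the highest library for 6 members (26.5% of all 13237 genes), replicate 2 for B2m alone (44.1%), and replicate 3 for H2-D1 and Tap2 (29.5%). The median deviation of the members from their own means was 0.18, -0.21 and 0.08 on the log2 scale in replicates 1, 2 and 3. Over the 5163 genes with a mean count of at least 1000 it was -0.02, 0.04 and -0.02. In deposited TPM the picture turned round, with 7 members highest in replicate 2, because nuclear protein-coding genes hold more of all TPM there. The share of all genes highest there in deposited TPM is not given here. After TPM were rescaled to the nuclear protein-coding total, replicate 2 was again the lowest for 7 members, all but B2m and Nlrc5. On that scale it was the lowest for 41.8% of the 5163 genes with a mean count of at least 1000.

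The sizes were modest. Tapbp had 563, 358 and 505 CPM and Tap2 had 56.1, 36.1 and 56.5 CPM, the widest ranges of the 9, at 1.57-fold between the highest and the lowest library for each. H2-K1 had 1256, 912 and 1166 CPM, and H2-D1 had 3700.0, 3037 and 3854 CPM. H2-T23 had 239, 192 and 226 CPM, Tap1 had 109, 80.4 and 102 CPM, and Nlrc5 had 68.3, 52.4 and 57.5 CPM. Erap1 had the narrowest range, 119.6, 99.96 and 113.1 CPM, with the highest library 1.2-fold above the lowest. In all of these replicate 2 lay below both other libraries. B2m went the other way with 2030, 2166 and 1598 CPM, highest in replicate 2 and lowest in replicate 3.

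**Figure D5:**
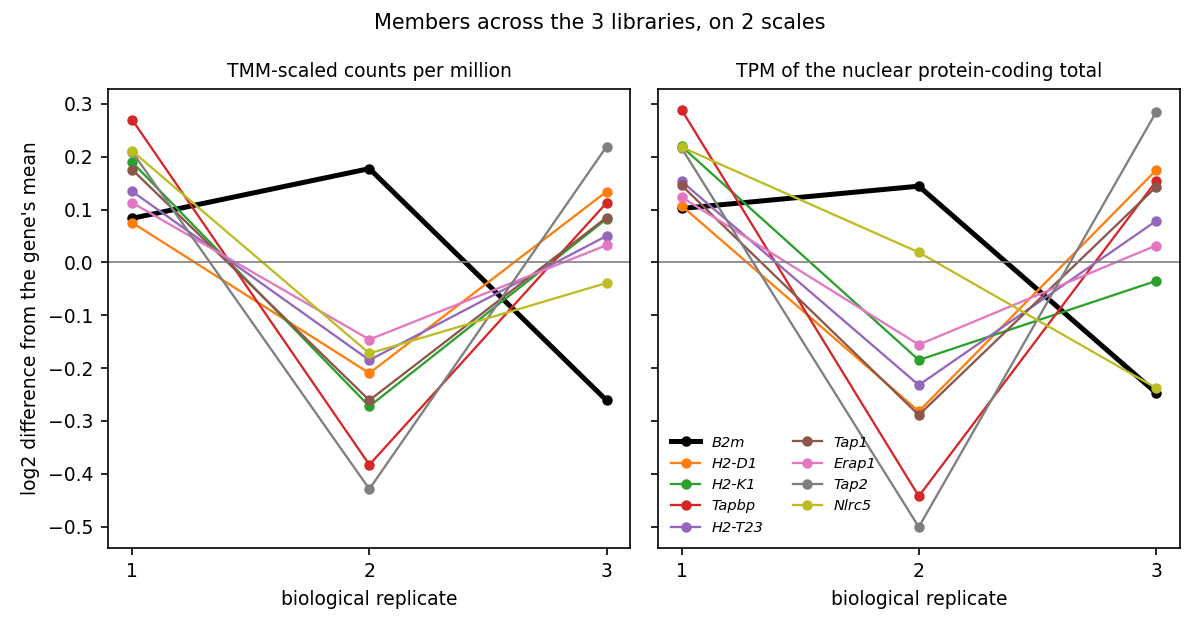
Log2 difference of each member from its own mean in replicates 1, 2 and 3, for TMM-scaled CPM (left) and for TPM rescaled to nuclear protein-coding genes (right), with lines that only join the values of a gene. On the left 8 genes are lowest in replicate 2, between -0.15 and -0.43, while B2m (black) is highest there at 0.18.

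Each of the 9 members differed between libraries by more than counting error, by a chi-square test that set the counts against Poisson sampling, with p-values adjusted over all genes tested by the Benjamini-Hochberg method. The largest adjusted p among them was 6.1e-15, for Erap1. Such a result was the rule at this depth: 67.9% of the 13237 tested genes passed, and 87.1% of those with a mean count of at least 1000, so the count of 9 members is close to what genes of that depth show. The libraries have 1 condition, and the labels do not say whether they came from separate animals, so the test measures the spread between these libraries only. The biological coefficient of variation, estimated with edgeR, lay between 12.2% and 19.5% for the members, with a median of 15.1%, and above the median of 12.1% over genes with a mean count of at least 1000 in all 9. Over all genes with a mean count of at least 10 the median was 17.3%, above that of the members. In bulk RNA a lower value can come from fewer cells of a type or from less RNA per cell, and the data cannot tell these apart.

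Other measures moved with the same libraries. All 8 stromal markers were highest in replicate 1, where 6 members were highest, with Col1a1, a fibrous collagen chain, at 2375, 1 and 14 counts. The part of such RNA in the members' values was not tested. The same 8 members were lower in replicate 2 than in replicate 3, which follows from replicate 2 being their lowest library. Without replicate 1, 9 of 9 members still passed the test, as did 7564 of the 13346 genes tested. Beside B2m, whose only transcript has 860 bases, stand the 291 nuclear protein-coding genes with a length under 1000 bases and a mean count of at least 1000. Their median deviation was -0.05, 0.17 and -0.13 in replicates 1, 2 and 3, against 0.08, 0.18 and -0.26 for B2m. Whether transcript length has a part in the B2m pattern was not tested further.

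Since 8 members moved together, the promoters are shown for H2-K1, which moved with them, and for B2m, which did not. Of the 9 members, 7 have a promoter window in the RefSeq table (GRCm38.p6), and the 250 bases before the start were searched on both strands. The H2-K1 window is chr17:34000348-34000597 (minus strand) and the B2m window is chr2:122147437-122147686 (plus strand). Capitals mark matches to the NF-kappaB consensus, to the interferon regulatory factor site AANNGAAA, to the core TGACG of the CRE-like site and to the Y box core CCAAT, which reads ATTGG on the other strand.
H2-K1: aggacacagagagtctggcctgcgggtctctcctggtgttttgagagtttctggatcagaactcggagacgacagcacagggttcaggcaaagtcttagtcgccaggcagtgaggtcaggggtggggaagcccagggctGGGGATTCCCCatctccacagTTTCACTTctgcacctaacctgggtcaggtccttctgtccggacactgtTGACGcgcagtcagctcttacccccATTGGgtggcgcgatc
B2m: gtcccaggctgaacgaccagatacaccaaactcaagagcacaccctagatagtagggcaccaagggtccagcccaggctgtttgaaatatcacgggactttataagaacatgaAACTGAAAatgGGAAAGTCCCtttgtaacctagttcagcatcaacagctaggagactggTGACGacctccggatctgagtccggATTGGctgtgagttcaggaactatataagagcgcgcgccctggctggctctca

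Both windows hold the same 4 kinds of match. The NF-kappaB match and the interferon regulatory factor match follow each other in the same block in H2-K1 and H2-D1, at chr17:34000430-34000458 (minus strand) and chr17:35262923-35262951 (plus strand). The H2-D1 block lies in the first exon of the longer GENCODE model H2-D1-202, and before the RefSeq start.
H2-K1 block: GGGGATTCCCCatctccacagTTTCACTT
H2-D1 block: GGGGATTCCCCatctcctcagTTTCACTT

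Across the 7 windows, CCAAT was found in 6, against 33.8% of all 32851 windows of that length. TGACG was found in 4 (H2-K1, H2-D1, B2m and Tap1; 17.8% of all windows). AANNGAAA was found in 4 (H2-K1, H2-D1, H2-T23 and B2m; 21.3%), and the NF-kappaB consensus in 3 (H2-K1, H2-D1 and B2m; 7.25%). TTCNNNGAA, the gamma-activated site, was found in none of the 7, against 7.02% of all windows. The windows of H2-D1 and Erap1 lie wholly, with all 250 bases, inside exons of the GENCODE annotation, and those of H2-T23 and Tapbp partly, with 154 and 146 bases, so the letters found there can be transcribed sequence. These are matches of letters and say nothing of whether a factor was bound. The motif letters were chosen with knowledge of class I promoters.

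Among genes near the members in function, the other class I genes were mostly low or off. Of 25 such genes in the annotation, 6 reached 10 TPM and none reached 100 TPM. Fcgrt, the neonatal Fc receptor that protects IgG, was the highest at 51.8, 62.9 and 63.9 TPM, followed by the non-classical gene H2-T22 with 37.1, 51.4 and 30.0 TPM and H2-Q4 with 25.8, 26.1 and 23.8 TPM. H2-Q2, H2-T3, H2-Bl, H2-M1, H2-M5, H2-M9, H2-M10.1 and H2-M11 had no count in any library of the gene table, which by that table allows up to 0.128, 0.059 and 0.084 CPM in replicates 1, 2 and 3 (3 counts per library, counting error only). The second transcript table assigned H2-Bl 5.20, 3.01 and 4.08 estimated counts, and the other 7 between 0 and 2 in each library. Of the 15 that could be tested, 13 differed between libraries (67.9% of all tested genes). In TMM-scaled CPM 13 were highest in replicate 1 (26.5% of all tested genes).

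The immunoproteasome genes, which supply peptides suited to class I, were all expressed above 10 TPM, and all 5 differed between libraries, as did 67.9% of all tested genes and 87.1% of those with a mean count of at least 1000. Psme2, a subunit of the PA28 activator, was the highest at 59.4, 103 and 67.7 TPM, followed by Psme1 at 49.2, 94.6 and 51.9 TPM and the catalytic subunit Psmb10 at 48.7, 61.9 and 49.9 TPM. Psmb9, which lies beside Tap1, was the lowest at 15.3, 26.0 and 16.1 TPM. Of the 8 chaperone and loading genes, 7 differed between libraries, against the same 67.9% and 87.1%. In TMM-scaled CPM replicate 3 was the highest library for 7 of the 8 (29.5% of all tested genes). The values that follow are deposited TPM, in which the order of the libraries can differ. Calr (calreticulin) had 185, 289 and 258 TPM, Hspa5 had 179, 181 and 213 TPM, Canx (calnexin) had 107, 173 and 135 TPM, and Tapbpl, a relative of tapasin, was the lowest at 4.05, 5.16 and 4.03 TPM.

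The regulators spanned a wide range, and 7 of 12 differed between libraries, against 67.9% of all tested genes. Irf1, an interferon regulatory factor that is itself an early target of inflammatory signals, was the highest at 168, 109 and 86.8 TPM and was highest in replicate 1. Rela, an NF-kappaB subunit, had 19.3, 28.3 and 19.8 TPM. Nfyb, a subunit of the factor that binds the Y box, was the lowest at 1.81, 3.12 and 2.11 TPM.

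For comparison, Cd74, the class II invariant chain, had 129, 75.2 and 113 TPM, H2-Aa had 45.3, 32.7 and 38.1 TPM, and H2-Eb2 was the lowest of the class II list at 0.07, 0.08 and 0.05 TPM. Of that list 7 of 11 differed between libraries, against 67.9% of all tested genes. Among the interferon-stimulated genes 18 of 19 differed, beside 67.9% of all tested genes and 87.1% of those with a mean count of at least 1000. Of the 19, 17 were highest in replicate 1 in TMM-scaled CPM, beside 26.5% of all tested genes. In deposited TPM, where nuclear protein-coding genes stand higher in replicate 2, the genes named next were highest in replicate 2. Bst2 (tetherin) had 125, 139 and 114 TPM, Ifit2 had 95.4, 107 and 60.5 TPM, and Isg20 was the lowest at 2.45, 3.07 and 2.18 TPM.

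The gene whose deviations lay nearest to the members' median, among 9693 other nuclear protein-coding genes with a mean count of at least 100, was H2-M3, a non-classical class I heavy chain. Its deviations were 0.16, -0.23 and 0.07 on the log2 scale, at most 0.02 from the members' median in any of the 3 libraries. Cpq, Plxdc1, Zfp36 and Neurl2 came next, each within 0.03. With only 3 libraries many genes lie close: 507 genes, or 5.23%, were within 0.1 in all 3.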

How the data were processed

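Cytosolic, ribosome-depleted RNA of 3 libraries was used in the form the authors deposited. The gene tables hold expected counts and TPM per gene, deposited by the authors with the column layout of RSEM, and the first transcript table adds the percent of a gene's TPM that each transcript takes (deposited by the authors). A second transcript table, in the layout of kallisto, holds estimated counts and TPM. The deposited readme files name mm10 and GENCODE M21. The sources used here give no aligner, no version and no use of strand.

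Expected counts were rounded, and rows that name no gene (0.462%, 0.109% and 0.0969% of counts in replicates 1, 2 and 3) were left out. Libraries were scaled by TMM (edgeR 4.0.16). Genes with a mean count of at least 10 were tested for differences between libraries by the chi-square dispersion index of their counts, with Poisson sampling as the null (scipy 1.17.1), called at an adjusted p under 0.05. Deviations used a prior count of 0.5, and levels log2(TPM + 1). Ratios and neighbouring levels were tested by exact sign flips over 3 libraries. The chi-square test was checked on simulated Poisson counts, with some genes changed in 1 library. Spread beyond counting error in the other genes was not simulated. DESeq2 1.42.0 size factors, other filters and pseudocounts, the second table and leaving out each replicate were the alternatives.

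Members and gene lists were chosen with earlier results of these data known. The text names all 9 members. From other class I genes it names the 3 highest and those at 0, from the immunoproteasome, chaperone and regulator lists the 3 highest and the lowest, from the class II and interferon lists the 2 highest and the lowest, and the 5 genes nearest in pattern. The values of 1 gene that this rule would name are not reported here. Intervals and floors cover counting error only. Sequences came from GENCODE M21 transcripts and RefSeq promoter windows (GRCm38.p6).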

Additional observations from a re-analysis of the deposited data

How the results depend on the processing

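The list's median level and its distance to other lists kept their direction under every alternative run. On the second transcript table the median of log2(TPM + 1) was 5.21, and after rescaling to nuclear protein-coding genes it was 8.55, against 6.64, because both change what TPM is taken over. The excess over expressed genes was 3.19 with the second table and 3.79 with comparison genes at 0.5 TPM or more, against 3.58. The excess over class II genes was 3.59 with a pseudocount of 0.1, 2.68 with genes at 0.5 TPM or more in both lists and 3.11 with the second table, against 3.46. The log2 ratio of H2-K1 plus H2-D1 to B2m reversed, to -0.012 with the second table and -0.17 with protein-coding transcripts only, and ran from -0.029 to 0.33 with a replicate left out; the excess of Tap2 over Nlrc5 ran from -0.13 (without replicate 3) to 0.34. The excess over interferon-stimulated genes ran from 1.89 to 2.20 with a replicate left out. Genes that passed the between-library test numbered between 4374 (without replicate 2) and 7564 (without replicate 1), against 8984, with 2 libraries compared in place of 3. Without replicate 2, Tap2 and Erap1 no longer passed and 7 members did, beside 4374 of the 13093 genes tested. In deposited TPM, 1, 7 and 1 members were highest in replicates 1, 2 and 3 and 2 were lowest in replicate 2 (chosen after seeing the data). No paired analysis was possible because there is 1 group. For a gene without any count, counting error allows a level of up to 3 counts. That is 0.128, 0.059 and 0.084 CPM in replicates 1, 2 and 3.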

Other observations

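The drop in replicate 2 was not confined to class I genes. The macrophage markers Adgre1 (the F4/80 antigen) and Csf1r (the receptor for the macrophage growth factor CSF1) deviated by 0.16, -0.25 and 0.09 and by 0.18, -0.28 and 0.10 on the log2 scale in replicates 1, 2 and 3, and 8 of the 10 macrophage markers were lowest in replicate 2, against 33.2% of the tested genes and 31.0% of those with a mean count of at least 1000. It did not extend to every list: 5 of the 19 interferon-stimulated genes and 2 of the 5 immunoproteasome genes were lowest in replicate 2, and 14 of the interferon-stimulated genes were lowest in replicate 3. Among MHC class II genes Cd74 deviated by 0.54, -0.77 and 0.23 and H2-Ab1 by 0.39, -0.67 and 0.28. The Qa-2 genes H2-Q6 and H2-Q7 deviated by 0.59, -0.67 and 0.08 and by 0.72, -0.92 and 0.19. The lysosomal macrophage gene Cd68 went the other way, at -0.21, 0.25 and -0.04. These genes were chosen after their values were seen, and no explanation was tested.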
